A study of Rattus norvegicus with 6 samples.

Results

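Rat ovaries taken on the day of birth and kept in organ culture for 7 days were compared with newborn ovaries that were not cultured. The comparison took every array with those labels, 4 of the 6 arrays of the series: 2 of cultured ovaries and 2 of ovaries from postnatal day 0 (P0). The other 2 arrays held ovaries from postnatal day 4 (P4), left in the animal until then, and are given beside the main comparison. Expression was measured on the Affymetrix Rat Genome U34 Set A, an array of short oligonucleotides on which a probe set reports the intensity of 1 transcript or of several similar ones. Each array carried RNA from a pool of about 20 whole ovaries, and per the labels the 2 pools of a group were independent. Strain and genotype are not given in the labels. The cultured ovaries lay whole on floating filters over a medium to which albumin, Albumax, transferrin, ascorbic acid, penicillin, streptomycin and insulin at 200 ng/ml had been added.

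The ovary of a newborn rat holds its germ cells in clusters. Around these days the oocytes enter a long arrest within meiotic prophase, and the clusters break up. Each oocyte is then enclosed by a layer of flat pregranulosa cells as a primordial follicle. Some of these follicles then begin to grow, and their granulosa cells make inhibin and anti-Müllerian hormone. Organ culture keeps the whole ovary outside the animal.

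The cultured ovaries were 7 days older than the P0 ovaries, so an effect of culture and an effect of age cannot be told apart. The chip identifiers in the labels put each of the 4 arrays in a batch of its own, so batch and group cannot be told apart either. The P4 arrays share their batches with the P0 arrays, replicate by replicate, so where P4 lies with P0 and apart from culture, the batches are split in the same way. The design text of the series mentions a progesterone treatment of cultured ovaries that the sample labels do not give, and whether either cultured array was treated is unsettled. Both were used as labelled. Across the 8740 probe sets that are not controls, log2 values correlated at 0.972 between the P0 arrays, at 0.973 between the cultured arrays and at 0.943 to 0.948 between the groups. P0 replicate 1 differed from the rest in its GAPDH controls, which read 1324.2 at the 3′ end against 2162.3 to 2775.1 on the other 5 arrays. Markers of the ovary were well above the background of the array on all 6 arrays: Zp2, of oocytes, read 282.4 or more, and Fst and Inha, of granulosa cells, 259 or more and 238 or more. The median standard error (SE) of a log2 change was 0.267, which the number of arrays limits.

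Of the 8740 probe sets, 187 were higher and 72 lower in cultured than in P0 ovaries at a limma adjusted p under 0.05. Over all probe sets the balance was the reverse, with a log2 change above 0 in 3687 and below 0 in 5053. The calls make up 259 probe sets or 2.96% of those tested, 2.14% higher and 0.824% lower, and 1439 had an unadjusted p under 0.05. The increases covered 141 named genes and the decreases 49. The groups did not overlap in any of the 259, but with 2 arrays against 2 they did not overlap in 2238 of the 4736 named genes either (47.3%). The calls depended on each array: without P0 replicate 1, P0 replicate 2, cultured replicate 1 and cultured replicate 2 in turn, 101, 65, 73 and 59 probe sets passed. The 34 probe sets that passed in the full comparison and also without each array were 29 increases and 5 decreases. Below, arrays were always left out singly. Such a fit leaves 1 array in a group, so the spread within that group does not enter it. A call lost "without any of the arrays" was lost whichever array was left out. A gene list counted "without each array in turn" has its counts in the order just given.

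**Figure D1:**
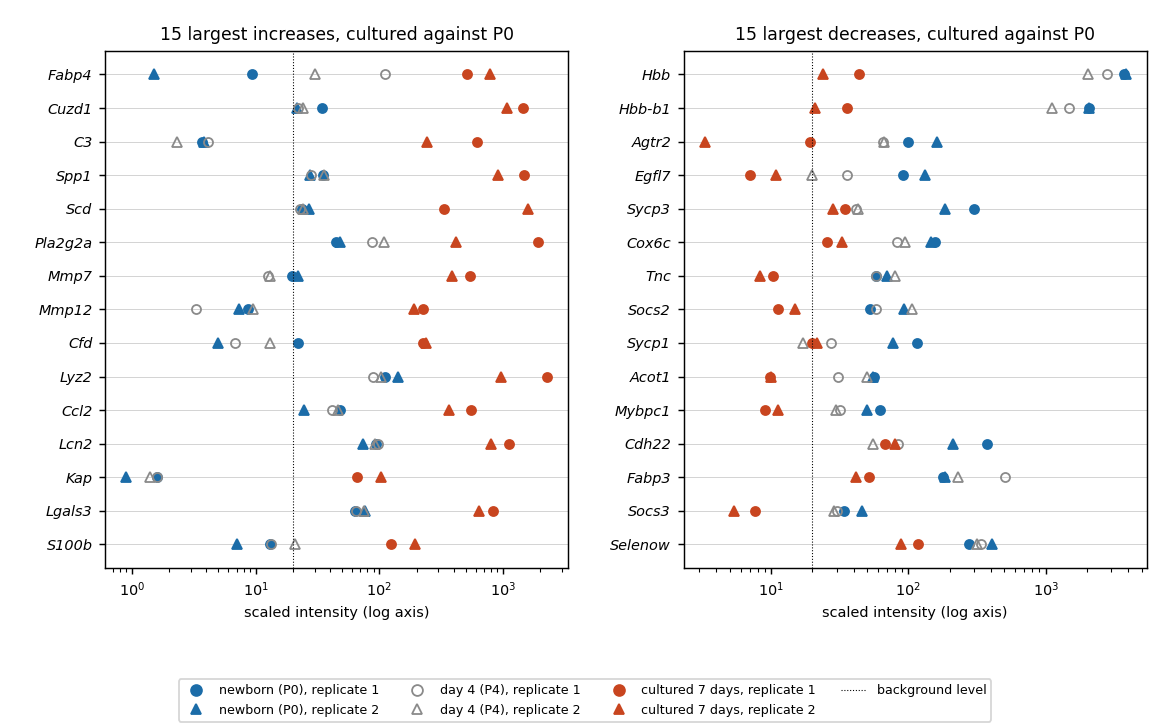
Scaled intensity (log axis) on each of the 6 arrays for the 15 named genes with the largest increases (left) and the 15 with the largest decreases (right) in cultured against P0 ovaries; circles are replicate 1, triangles replicate 2, and the dotted line is the background level of 20. That both cultured arrays lie on the same side of both P0 arrays was required for a gene to be shown. For most of the genes on the left the P4 arrays lie with the P0 arrays.

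The largest changes ran from the near loss of globin transcripts to increases of genes for secreted and fat-handling proteins. Of the 15 largest increases, shown in the plot of the most changed genes, 11 kept their call without each array. Of the 15 largest decreases, 3 did, Hbb, Hbb-b1 and Cox6c. A change given as "at least" N-fold has the arrays that read under a background level of 20 set to that level. That level was taken from 23 controls for transcripts that were not spiked in, none of which read higher on any array. An "at least" change compares group means of log2 values, so single pairs of arrays can differ by less. The adjusted p beside it is from the fit, in which no reading was raised to the background level.

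Globin transcripts mark red cells and their precursors. Hbb, a beta globin gene, read 3738.1 and 3809.8 at P0 and 44 and 23.8 after culture. Both cultured arrays were far below both P0 arrays, and Hbb fell by 6.55 on the log2 scale (SE 0.25, adjusted p = 1.24e-05). Hbb-b1 read 2049.6 and 2079.6 at P0 and 35.6 and 20.9 after culture, and fell by 5.88 (SE 0.23, adjusted p = 1.24e-05). Globin genes resemble each other closely, and the signal of either probe set may hold RNA of more than 1 of them. In the P4 ovaries Hbb read 2776.5 and 2040.9. The erythroid list had 8 measured genes, of which 2 fell and none rose, against 0.845% lower and 2.47% higher among all 4736 named genes. The 2 calls held without each array in turn. The median log2 change of the list was -0.92, against -0.05 for all named genes. Alas2, for heme synthesis in red cells, read 119.7 and 156.2 at P0 and 73.7 and 68.9 after culture, and did not pass (log2 change -0.87, adjusted p = 0.09). In RNA of whole organs, fewer cells of a type and less RNA per cell cannot be told apart.

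Zp1, Zp2 and Zp3, for proteins of the zona pellucida, which coats the oocyte, rose in culture. Zp2 read 282.4 and 338.3 at P0 and 1373.9 and 1309.9 after culture, a log2 change of 2.09 (SE 0.17, adjusted p = 0.000795) that held without each array. Zp1 read 71 and 74 at P0 and 167.5 and 171.9 after culture (log2 change 1.15, SE 0.19, adjusted p = 0.0253). Zp3 read 519.6 and 566.9 at P0 and 1326.8 and 1004.3 after culture (log2 change 1.08, SE 0.21, adjusted p = 0.0377). For the 3 genes both cultured arrays lay above both P0 arrays. Zp1 and Zp3 lost the call without any of the 4 arrays, with adjusted p up to 0.16 and 0.223. The oocyte list had 8 measured genes, of which 3 rose and none fell, with 1, 1, 2 and 1 higher without each array in turn and a median log2 change of 0.73. Gja4, the connexin through which oocytes couple to granulosa cells, read 119.1 and 138.5 at P0 and 181.1 and 440.5 after culture, and did not pass (log2 change 1.10, adjusted p = 0.173). Kit, the receptor for kit ligand, read 72.9 and 79.6 at P0 and 88.3 and 79.1 after culture (log2 change 0.12, adjusted p = 0.9).

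The synaptonemal complex holds homologous chromosomes together in meiotic prophase, and its genes Sycp1 and Sycp3 fell. Sycp3 read 300 and 184.6 at P0 and 34.6 and 28.1 after culture, and fell by 2.64 on the log2 scale (SE 0.29, adjusted p = 0.00319). Sycp1, the transverse filament protein, read 115.9 and 77.7 at P0 and 19.8 and 21.7 after culture, and fell by 1.85 (SE 0.32, adjusted p = 0.0253). Neither pair of groups overlapped. Without cultured replicate 2 the call for Sycp3 was lost (adjusted p = 0.0758), and that for Sycp1 was lost without any of the arrays (adjusted p up to 0.16). Sycp2, of the axial elements, had a log2 change of -0.86 and did not pass (adjusted p = 0.264). Of the 6 measured genes of the meiotic list, 2 fell and none rose, with 1, 1, 1 and 0 lower without each array in turn.

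At P4 the zona pellucida genes were also high and Sycp3 also low. Zp2 was at 1782.3 and 1466.4, Zp1 at 267.9 and 222.4, and Zp3 at 1466.7 and 2082.4. Sycp3 was at 41.7 and 43. Against P4, the cultured ovaries differed by a log2 change of -0.27 for Zp2 (SE 0.17, adjusted p = 0.642), -0.51 for Zp1 (SE 0.19, adjusted p = 0.348), -0.60 for Zp3 (SE 0.21, adjusted p = 0.311) and -0.36 for Sycp3 (SE 0.29, adjusted p = 0.741). None of the oocyte or meiotic list members passed against P4. For these 4 genes both cultured arrays lay below both P4 arrays. Sycp1, at 27.3 and 17.1 at P4, overlapped with culture (log2 change -0.05, adjusted p = 0.98). Separation is common with 2 arrays against 2, as in 47.3% of named genes against P0. A p that misses the threshold does not show that the levels were alike.

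**Figure D2:**
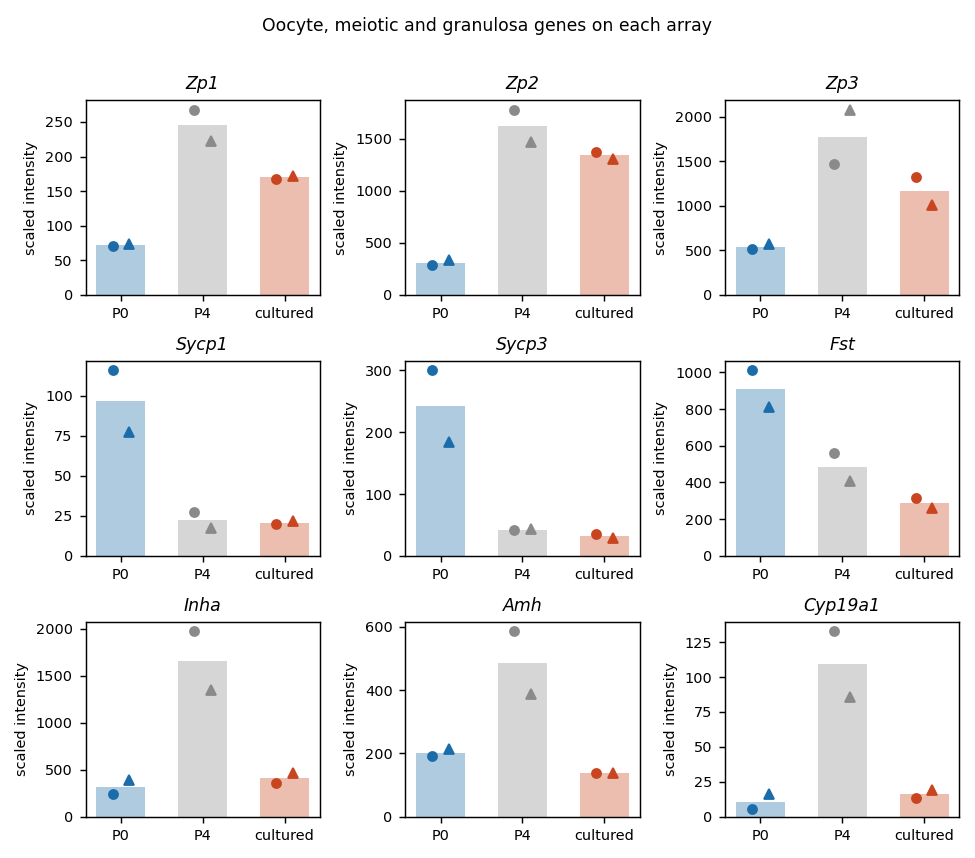
Scaled intensity (linear axis) of 3 zona pellucida genes, 2 synaptonemal complex genes and 4 granulosa genes in P0, P4 and cultured ovaries; bars are means of 2 arrays, circles replicate 1 and triangles replicate 2. The cultured arrays sit near P4 for Zp2 and Sycp3 and near P0 for Inha and Cyp19a1. They lie below both for Fst and Amh, with Amh closer to P0 than to P4.

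Of the granulosa genes, Inha, Amh and Cyp19a1, which make hormones, did not pass against P0 and were lower than at P4. Inha, the inhibin alpha subunit, read 238 and 394.7 at P0, 360.7 and 462.3 after culture, and 1970.3 and 1349.1 at P4. The groups P0 and cultured overlapped (log2 change 0.40, adjusted p = 0.53), while culture was lower than P4 by a log2 change of -1.98 (SE 0.28, adjusted p = 0.0122). That call was lost without P4 replicate 1 or either cultured array (adjusted p up to 0.163). Amh, anti-Müllerian hormone, read 192 and 214.2 at P0, 138.6 and 137.1 after culture, and 585.7 and 389.4 at P4. It did not pass against P0 (log2 change -0.53, adjusted p = 0.277) and was lower than at P4 (log2 change -1.74, SE 0.22, adjusted p = 0.00723), a call lost without either cultured array (adjusted p up to 0.115). Cyp19a1, the aromatase that makes estrogens, read 5.6 and 16.2 at P0, 13.4 and 18.9 after culture, and 132.6 and 85.7 at P4. All P0 and cultured values of Cyp19a1 lay under the background level, and culture was at least 5.33-fold lower than P4 (adjusted p = 0.0247). Without P4 replicate 1 or either cultured array that call was lost (adjusted p up to 0.19).

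Among the 28 measured genes of the granulosa list, 3 rose and 2 fell against P0, with a median log2 change of -0.22. The increases were those of Krt18, Krt8 and Gsta1, the first pair keratins of simple epithelia and the other a glutathione transferase. The decreases were those of Fst and Gata6. Fst, follistatin, which binds activin, read 1010.6 and 813.9 at P0 and 316.9 and 259 after culture, and fell by 1.64 (SE 0.21, adjusted p = 0.00832). Gata6, a transcription factor of granulosa cells, read 436.3 and 402.9 at P0 and 173.9 and 165.2 after culture, and fell by 1.27 (SE 0.17, adjusted p = 0.0092). Without each array in turn, 2, 0, 0 and 0 genes were higher and 1, 1, 0 and 0 lower. Wt1 and Kitlg had log2 changes of -1.28 and -1.26 and did not pass, and both Kitlg arrays after culture, at 4.4 and 4.9, lay under the background level. Against P4, 2 genes of the list were higher and 5 lower. Gsta1 read 292.1 and 168.8 at P0, 493.4 and 492.1 at P4 and 584.8 and 578.8 after culture. Krt18 and Krt8 were lower at P4 than after culture, at 36.9 and 79.4 and at 86.7 and 95.3.

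None of the 22 measured genes of steroid synthesis passed against P0 on its brightest probe set, and the median log2 change was 0.20. Among all 4736 named genes 2.47% were higher and 0.845% lower, so a list this short can lack a call at that rate. Star, which carries cholesterol into mitochondria, passed on another probe set: it read 12.7 and 5.2 at P0 and 47.8 and 114 after culture, at least 3.69-fold higher (adjusted p = 0.029). Its brightest probe set read 36.1 and 5.1 at P0 and 52.5 and 96.2 after culture and did not pass (adjusted p = 0.191). Cyp11a1, which makes pregnenolone, lay under the background level on all 6 arrays. None of the 10 genes for steroid receptors and their cochaperones passed, with a median log2 change of 0.01.

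The list of macrophage and leukocyte genes had 32 measured members, of which 9 rose and none fell, with a median log2 change of 0.27. Without each array in turn, 4, 4, 3 and 5 were higher, and with quantile normalization 4. Lyz2, the lysozyme of macrophages, read 110.8 and 141.3 at P0 and 2267 and 955.7 after culture, a log2 change of 3.48 (SE 0.36, adjusted p = 0.00253). Coro1a, an actin-binding protein of leukocytes, read 4.8 and 4.6 at P0 and 97.2 and 50 after culture, at least 3.49-fold higher (adjusted p = 0.00666). Both kept their call without each array. Fcgr2b, a receptor for antibodies, read 9.5 and 6.4 at P0 and 167.6 and 66.5 after culture, at least 5.28-fold higher (adjusted p = 0.013), a call lost without P0 replicate 2 or cultured replicate 1 (adjusted p up to 0.0722).

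The other members that rose were Aif1 (log2 change 2.24), an actin-binding marker of macrophages, Cd53 (2.22), a leukocyte tetraspanin, Lyn (1.76), a kinase of immune receptors, Ctss (1.65), the cathepsin of antigen-presenting cells, Emb (1.41), and Cyba (1.33), a subunit of the phagocyte oxidase. Aif1, Lyn and Cyba lost the call without any of the 4 arrays, Cd53 and Ctss without 3 of them and Emb without cultured replicate 2, with adjusted p up to 0.19. Other markers of the same cells did not pass on their brightest probe set. Csf1r, the receptor for the macrophage growth factor, read 10.6 and 15.1 at P0 and 20.9 and 9 after culture, and Itgam lay under the background level on all 6 arrays. C1qb, a chain of C1q made by macrophages, read 44.2 and 116.4 at P0, 10.4 and 19.4 at P4 and 325.9 and 240 after culture (log2 change against P0 1.84, adjusted p = 0.0626), while its other probe set passed (log2 change 1.93, adjusted p = 0.0304). Ptprc, the common leukocyte antigen, read 34.2 and 23.2 at P0 and 38.6 and 22.8 after culture on its brightest probe set (log2 change 0.06, adjusted p = 0.961), and on a dimmer probe set Ptprc rose at least 1.76-fold (adjusted p = 0.0314). Genes of T cells did not pass either: Cd3g read 24.6 and 22.9 at P0 and 24.5 and 35.7 after culture. Cma1, a mast cell protease, read 208 and 479.1 at P0 and 165.5 and 46.9 after culture (log2 change -1.74, adjusted p = 0.152). Summed over the list, intensity was 2118 and 2584 at P0, 1741 and 1793 at P4, and 6697 and 4059 after culture. Both cultured arrays lay above the other 4, and replicate 1 above replicate 2. Of these sums Lyz2 alone gave 2267 and 955.7 after culture, against 110.8 and 141.3 at P0. What part these cells had in the increases described next was not tested.

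Of 18 measured complement genes, C3, C1s, Clu and Cfd rose. C3, the central complement protein, read 3.7 and 3.8 at P0 and 615.6 and 241.1 after culture, at least 19.3-fold higher (adjusted p = 0.000834). C1s, a protease of the classical pathway, read 125.8 and 115.8 at P0 and 792.5 and 678.1 after culture (log2 change 2.53, SE 0.18, adjusted p = 0.000426). Clu, clusterin, which blocks the membrane attack complex, read 139.1 and 175.6 at P0 and 769.6 and 872.9 after culture (log2 change 2.33, SE 0.18, adjusted p = 0.000544). In each of these genes the cultured arrays lay well above the P0 arrays, and the calls held without each array. At P4 Clu read 483.3 and 465.9, above both P0 arrays, while C3 read 4.1 and 2.3 and C1s 106 and 118.9. Cfd is described with the fat cell genes. None of the list fell, and its median log2 change was 0.47. There were 4, 5, 3 and 3 higher without each array in turn. C1qc, of the C1q recognition molecule, read 138.3 and 163.8 at P0 and 159.6 and 151.5 after culture (log2 change 0.04, adjusted p = 0.951).

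Spp1, osteopontin, a secreted phosphoprotein of matrix and macrophages, read 34.8 and 27.3 at P0 and 1482.2 and 903.9 after culture. Its log2 change of 4.92 (SE 0.28, adjusted p = 9.35e-05) was among the largest of all. Lcn2, lipocalin 2, which binds bacterial iron carriers, read 94 and 74.1 at P0 and 1108 and 795.1 after culture (log2 change 3.38, SE 0.22, adjusted p = 0.00024). Ccl2, the chemokine that draws monocytes, read 48 and 24.5 at P0 and 545.7 and 367.5 after culture (log2 change 3.43, SE 0.32, adjusted p = 0.00146). Lgals3, galectin 3, read 63.5 and 76.5 at P0 and 831.7 and 641 after culture (log2 change 3.25, SE 0.22, adjusted p = 0.00024). These 4 calls held without each array. Pla2g2a, a secreted phospholipase, read 44.6 and 48.4 at P0 and 1910.6 and 417.4 after culture (log2 change 4.06, SE 0.57, adjusted p = 0.0109), a call that leaving out P0 replicate 2 ended (adjusted p = 0.0519). Il1b, the cytokine interleukin 1 beta, read 27 and 19.9 at P0 and 186.8 and 117.7 after culture (log2 change 2.34, SE 0.31, adjusted p = 0.00859), a call lost without P0 replicate 2 or cultured replicate 1 (adjusted p up to 0.0822).

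Of the 60 measured genes of acute phase and inflammation, 10 rose and 2 fell, with 6, 4, 6 and 6 higher without each array in turn and a median log2 change of 0.29. The further increases were those of Cp, ceruloplasmin, with a log2 change of 1.82 (adjusted p = 0.0116), Anxa1, an annexin that dampens inflammation, with 1.42 (adjusted p = 0.0148), Ccl3, a macrophage chemokine, at least 2.91-fold (adjusted p = 0.0296), and Reg3b, a lectin, at least 1.33-fold (adjusted p = 0.0296). Anxa1 lost its call without 3 of the 4 arrays and the others without any of them, with adjusted p up to 0.194. The 2 that fell were Socs2 and Socs3, which damp cytokine signalling. Socs3 read 33.8 and 45.7 at P0 and 7.6 and 5.4 after culture, at least 1.97-fold lower (adjusted p = 0.0233). Socs2 read 52.7 and 93.1 at P0 and 11.2 and 15 after culture, at least 3.50-fold lower (adjusted p = 0.0356). Both calls were lost without any of the arrays, with adjusted p up to 0.142 and 0.196. The cytokine genes Il6 and Tnf lay under the background level on all 6 arrays. Ptgs2, the inducible cyclooxygenase, read 31.8 and 42.1 at P0 and 31.5 and 10.1 after culture (log2 change -0.75, adjusted p = 0.408).

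Among genes of antigen presentation, B2m, the light chain of class I molecules, read 472.4 and 501.6 at P0 and 1707.5 and 1680.7 after culture, a log2 change of 1.78 (SE 0.15, adjusted p = 0.000795) that held without each array. Psmb8, of the immunoproteasome, read 114.1 and 102.1 at P0 and 286.8 and 249.6 after culture (log2 change 1.25, SE 0.21, adjusted p = 0.0237). Psme2, a proteasome activator, rose by 0.91 on the log2 scale (adjusted p = 0.0393). Psmb8 and Psme2 lost the call without any of the 4 arrays (adjusted p up to 0.143 and 0.187). Of the 20 measured genes of this list 4 rose and none fell, with 1, 1, 1 and 2 higher without each array in turn, 2 with quantile normalization and a median log2 change of 0.50. Ctss, given above with the macrophage genes, was the last of them. Cd74, the invariant chain of class II molecules, read 25.4 and 58.6 at P0 and 152.3 and 73.9 after culture and did not pass (log2 change 1.29, adjusted p = 0.184).

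Of 47 measured proteases and inhibitors 7 rose and none fell, among them Mmp7, Mmp12 and Mmp9, metalloproteases that degrade matrix. Mmp7, matrilysin, an enzyme of epithelial cells, read 19.8 and 22.1 at P0 and 536 and 388.9 after culture, a log2 change of 4.02 (SE 0.26, adjusted p = 0.00024). Mmp12, macrophage elastase, read 8.7 and 7.3 at P0 and 226.4 and 190.9 after culture, at least 10.4-fold higher (adjusted p = 0.000834). Mmp9, gelatinase B, read 5.1 and 4.2 at P0 and 76.9 and 48.5 after culture, at least 3.05-fold higher (adjusted p = 0.00589). For these 3 the groups were far apart and the calls held without each array. Plaur, the receptor for urokinase, was at least 2.68-fold higher (adjusted p = 0.0335), Ctsc, a cathepsin, rose by 1.77 on the log2 scale (adjusted p = 0.0253) and Cstb, an inhibitor of cathepsins, by 0.86 (adjusted p = 0.0324). Plaur and Cstb lost their calls without any of the 4 arrays and Ctsc without 3 of them, with adjusted p up to 0.197. Ctss was the last of the 7. The list had 3, 4, 3 and 4 higher without each array in turn and a median log2 change of 0.09. Timp1, an inhibitor of metalloproteases, did not pass on its brightest probe set, at 295.2 and 297.5 at P0 and 438.5 and 505.9 after culture (log2 change 0.65, adjusted p = 0.0902), and did on another (log2 change 1.06, adjusted p = 0.0282).

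The upstream sequences of 4 of the genes above are printed because all 4 are among the 15 largest increases: Mmp7 and Mmp12 share a letter match, and Lcn2 and C3 are secreted proteins of host defence. Each is the 250 bases before the RefSeq gene start, 5′ to 3′ on the gene's strand, from the GRCr8 build. In the metalloprotease genes, capitals mark TGANTCA, the AP-1 motif, read on both strands. In Lcn2 and C3, capitals mark TTGCNNAA, the C/EBP motif, on both strands, and in Lcn2 also the NF-kappaB motif. The windows are at chr8:13132793-13133042 (plus strand) for Mmp7, chr8:12866402-12866651 (plus strand) for Mmp12, chr3:36081781-36082030 (minus strand) for Lcn2 and chr9:2201340-2201589 (minus strand) for C3.
Mmp7: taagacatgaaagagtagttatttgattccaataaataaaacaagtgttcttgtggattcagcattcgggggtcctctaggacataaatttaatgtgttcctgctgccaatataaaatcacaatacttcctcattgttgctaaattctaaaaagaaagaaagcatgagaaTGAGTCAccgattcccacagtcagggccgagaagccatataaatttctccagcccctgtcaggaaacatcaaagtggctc
Mmp12: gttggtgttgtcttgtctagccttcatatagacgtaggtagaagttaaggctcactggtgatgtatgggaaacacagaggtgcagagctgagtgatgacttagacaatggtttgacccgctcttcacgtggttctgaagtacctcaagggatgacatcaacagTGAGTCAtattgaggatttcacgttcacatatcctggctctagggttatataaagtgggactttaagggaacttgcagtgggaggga
Lcn2: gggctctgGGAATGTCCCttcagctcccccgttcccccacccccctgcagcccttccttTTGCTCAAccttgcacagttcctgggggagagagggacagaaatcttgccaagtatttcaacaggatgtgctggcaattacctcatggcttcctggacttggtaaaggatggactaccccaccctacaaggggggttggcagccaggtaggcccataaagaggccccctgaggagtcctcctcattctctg
C3: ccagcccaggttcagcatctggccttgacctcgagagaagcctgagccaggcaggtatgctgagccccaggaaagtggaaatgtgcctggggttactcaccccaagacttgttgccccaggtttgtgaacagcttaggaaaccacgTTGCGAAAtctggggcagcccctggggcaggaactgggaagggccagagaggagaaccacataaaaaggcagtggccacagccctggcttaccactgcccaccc
The AP-1 letters begin 80 bases before the start of Mmp7 and 87 bases before that of Mmp12. The Mmp7 window also held TTGCTAAA, a C/EBP match left in lower case. The TATA box motif, TATAAA, was also searched on both strands and is not marked, and no marked stretch overlaps it. Of the 15 genes with the largest increases, 12 had a window in the RefSeq table, and 2 of the 12 held the AP-1 motif, 4 the C/EBP motif, 1 the NF-kappaB motif and 3 TATAAA. Of the 15 with the largest decreases, 13 had a window, and 0, 3, 3 and 4 of these held the motifs in that order. Among all 33469 windows, 6.34%, 9.22%, 6.33% and 12.9% held them. The motifs were chosen with the values known, and a match describes the letters only.

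Of 37 measured genes of adipocytes and fatty acid handling, 5 rose and 1 fell. Fabp4, the fatty acid carrier of adipocytes and macrophages, read 9.3 and 1.5 at P0 and 512.3 and 783.3 after culture, at least 31.7-fold higher (adjusted p = 0.00154). Its call was lost without cultured replicate 2 (adjusted p = 0.0785). Lpl, lipoprotein lipase, which frees fatty acids from lipoproteins, read 66.1 and 53.2 at P0 and 396.7 and 652.7 after culture (log2 change 2.95, SE 0.26, adjusted p = 0.00116). Its call held without each array, and both further Lpl probe sets passed. Acsl1, which activates fatty acids, read 46.2 and 38.4 at P0 and 198.4 and 323.2 after culture (log2 change 2.39, SE 0.28, adjusted p = 0.00472), a call lost without cultured replicate 2 (adjusted p = 0.0665). Cfd, adipsin, a complement protease of fat cells, read 21.8 and 5 at P0 and 225.4 and 238.3 after culture (log2 change 3.63, SE 0.42, adjusted p = 0.00472), a call lost without either cultured array (adjusted p up to 0.103). Fabp3, the carrier of heart and muscle, changed in the opposite direction: it read 178.4 and 184.9 at P0 and 52 and 41.7 after culture, and fell by 1.80 (SE 0.34, adjusted p = 0.0314), a call lost without any of the arrays (adjusted p up to 0.248). At P4 Fabp3 read 507.6 and 230.5, and Cfd 6.8 and 13.1. Fabp4 read 111.4 and 30.1 at P4, Lpl 117.5 and 105.3, and Acsl1 99.6 and 81.7, in each case above both P0 arrays. Culture was higher than P4 by a log2 change of 3.26 for Fabp4 (adjusted p = 0.0224), 2.12 for Lpl (adjusted p = 0.007) and 1.41 for Acsl1 (adjusted p = 0.0488).

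The median log2 change of this list was 0.16. Without each array in turn, 5, 4, 3 and 1 were higher. Acadm, for the oxidation of medium-chain fatty acids, was the other increase (log2 change 1.48, SE 0.20, adjusted p = 0.00887), lost without 3 of the 4 arrays (adjusted p up to 0.103). Several adipocyte genes did not pass. Pparg, the regulator of fat cell formation, read 23.3 and 12.5 at P0 and 32.8 and 38.2 after culture (adjusted p = 0.261). Lep, leptin, had a log2 change of -0.44 (adjusted p = 0.223).

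Scd, the desaturase that makes monounsaturated fatty acids, read 23.7 and 27.2 at P0 and 334.5 and 1580.1 after culture (log2 change 4.48, SE 0.59, adjusted p = 0.00832). Its cultured arrays lay far apart, and leaving out either of them takes that spread out of the fit. A dimmer Scd probe set did not pass (log2 change 1.62, adjusted p = 0.255). Sqle, an enzyme of cholesterol synthesis, read 175.4 and 143.9 at P0 and 321.2 and 323 after culture (log2 change 0.99, SE 0.18, adjusted p = 0.0296), a call lost without any of the arrays (adjusted p up to 0.183). In this list of 23 measured genes 2 rose and none fell, with 1 higher without each array in turn. Its median log2 change was 0.63 and 20 of its genes had a log2 change above 0, against 2069 of all 4736 named genes. Cyp51, Insig1 and Srebf1, for an enzyme and regulators of sterol synthesis, had log2 changes of 1.17, 1.28 and 1.13 and did not pass. Fasn, fatty acid synthase, was level, at 143 and 125.5 at P0 and 121.9 and 147.6 after culture. At P4 Sqle read 260.8 and 273.4, above both P0 arrays, and Scd 22.7 and 24.

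Krt18 read 82.1 and 63.5 at P0 and 337 and 388.8 after culture (log2 change 2.21, SE 0.32, adjusted p = 0.0125), and its partner Krt8 read 145.3 and 129.9 at P0 and 260.5 and 274.4 after culture (log2 change 0.92, SE 0.19, adjusted p = 0.0422). Krt18 lost its call without 3 of the 4 arrays and Krt8 without any (adjusted p up to 0.171 and 0.217). Krt19, which marks the surface epithelium, went the other way and did not pass: 1103.3 and 1131.1 at P0, 691 and 480.2 after culture (log2 change -0.95, adjusted p = 0.1). Of the 15 measured genes of the surface epithelium list 2 rose and none fell, with 1, 0, 0 and 0 higher without each array in turn and a median log2 change of -0.10. Cuzd1, for a membrane protein with CUB and zona pellucida-like domains made in uterus and pancreas, read 34.2 and 21.6 at P0 and 1447.3 and 1077.9 after culture. Its log2 change of 5.16 (SE 0.26, adjusted p = 5.06e-05) held without each array, and its other probe set passed as well. Kap, a protein of kidney tubules that androgens regulate, read 1.6 and 0.9 at P0 and 66.4 and 103.3 after culture, at least 4.14-fold higher (adjusted p = 0.000834), which also held. At P4 Cuzd1 read 21.8 and 23.9 and Kap 1.6 and 1.4, as low as at P0.

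S100b, a calcium-binding protein of glia, read 13 and 7 at P0 and 123.2 and 193.6 after culture, at least 7.72-fold higher (adjusted p = 0.00319), a call lost without cultured replicate 2 (adjusted p = 0.0615). Npy, a neuropeptide, read 63.4 and 71.5 at P0 and 228.9 and 160.7 after culture (log2 change 1.41, SE 0.27, adjusted p = 0.0351), a call lost without any of the arrays (adjusted p up to 0.191). These were the 2 increases among 31 measured genes of nerve and Schwann cells, of which none fell and whose median log2 change was -0.11. Without each array in turn, 1, 1, 2 and 0 were higher, and 1 with quantile normalization.

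None of the 23 measured endothelial genes passed on its brightest probe set, and their median log2 change was -0.17. Pecam1, an adhesion molecule of endothelium, read 47.8 and 71.8 at P0 and 33.3 and 79.2 after culture. Kdr, the main receptor for vascular endothelial growth factor, read 98.6 and 121.9 at P0 and 65.2 and 65.3 after culture (log2 change -0.69, adjusted p = 0.269). Summed intensity of the list was 1961 and 2108 at P0 and 1379 and 2346 after culture, so the groups overlapped. Gja5, an arterial connexin, was level on its brightest probe set, at 119.6 and 145.5 at P0 and 121.2 and 145.7 after culture, while on another the increase was at least 5.02-fold (adjusted p = 0.00593), a call lost without cultured replicate 2 (adjusted p = 0.0785). Egfl7, a secreted protein of endothelium that was not on the list, read 90.8 and 131.2 at P0 and 7 and 10.9 after culture, at least 5.46-fold lower (adjusted p = 0.00632), a call lost without either cultured array (adjusted p up to 0.0822). At P4 Egfl7 read 35.7 and 20. Agtr2, the angiotensin receptor common in fetal mesenchyme, read 99.9 and 162.4 at P0 and 19.1 and 3.3 after culture, at least 6.37-fold lower (adjusted p = 0.0125), a call lost without P0 replicate 2 or cultured replicate 2 (adjusted p up to 0.0915).

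Of 41 measured genes of collagen and matrix, 1 rose and 1 fell, with a median log2 change of -0.22. Postn, periostin, read 1390.8 and 1587.2 at P0 and 640.4 and 393.4 after culture, and fell by 1.55 (SE 0.23, adjusted p = 0.0138), a call lost without P0 replicate 2 or cultured replicate 2 (adjusted p up to 0.107). Plod2, which hydroxylates collagen lysines, had a log2 change of 1.16 (adjusted p = 0.0375), lost without any of the arrays (adjusted p up to 0.213). Without each array in turn none of the list was higher, and 1, 0, 1 and 0 were lower. At P4 Postn read 609.1 and 692.1 and overlapped with culture (log2 change against P4 -0.37, adjusted p = 0.639). Plod2 read 458.8 and 299.7 at P4 and overlapped with culture too (log2 change against P4 -0.14, adjusted p = 0.928). The main stromal collagen Col1a1 read 4248 and 4123.8 at P0 and 3074.2 and 3450.9 after culture (log2 change -0.36, adjusted p = 0.279). For Tnc, tenascin C, 2 of 3 probe sets fell, among them one at 58.6 and 69.7 at P0 and 10.3 and 8.3 after culture, at least 3.20-fold lower (adjusted p = 0.0102). The brightest did not pass, at 109.3 and 127 against 50.1 and 83.3. The 17 measured genes of smooth muscle had no call and a median log2 change of 0.14.

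The remaining genes among the 15 largest decreases were of several kinds. Cdh22, a cadherin, read 374.8 and 210.4 at P0, 84.3 and 55.6 at P4 and 67.9 and 79.9 after culture, and fell by 1.83 against P0 (SE 0.31, adjusted p = 0.0253). Selenow, a small selenoprotein, read 277.7 and 408.2 at P0, 336 and 317.3 at P4 and 117.6 and 87.9 after culture, and fell by 1.65 (SE 0.24, adjusted p = 0.0117). Cdh22 was thus already low at P4 and Selenow was not. Acot1, a thioesterase of fatty acyl-CoA, read 55.9 and 54.9 at P0 and 9.8 and 10 after culture, at least 2.77-fold lower (adjusted p = 0.0218). Mybpc1, a myosin-binding protein, read 62 and 50.2 at P0 and 9.1 and 11.3 after culture, at least 2.79-fold lower (adjusted p = 0.0157). Acot1 and Mybpc1 lost their calls without any of the 4 arrays and Cdh22 and Selenow without 3 of them, with adjusted p up to 0.179.

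**Figure D3:**
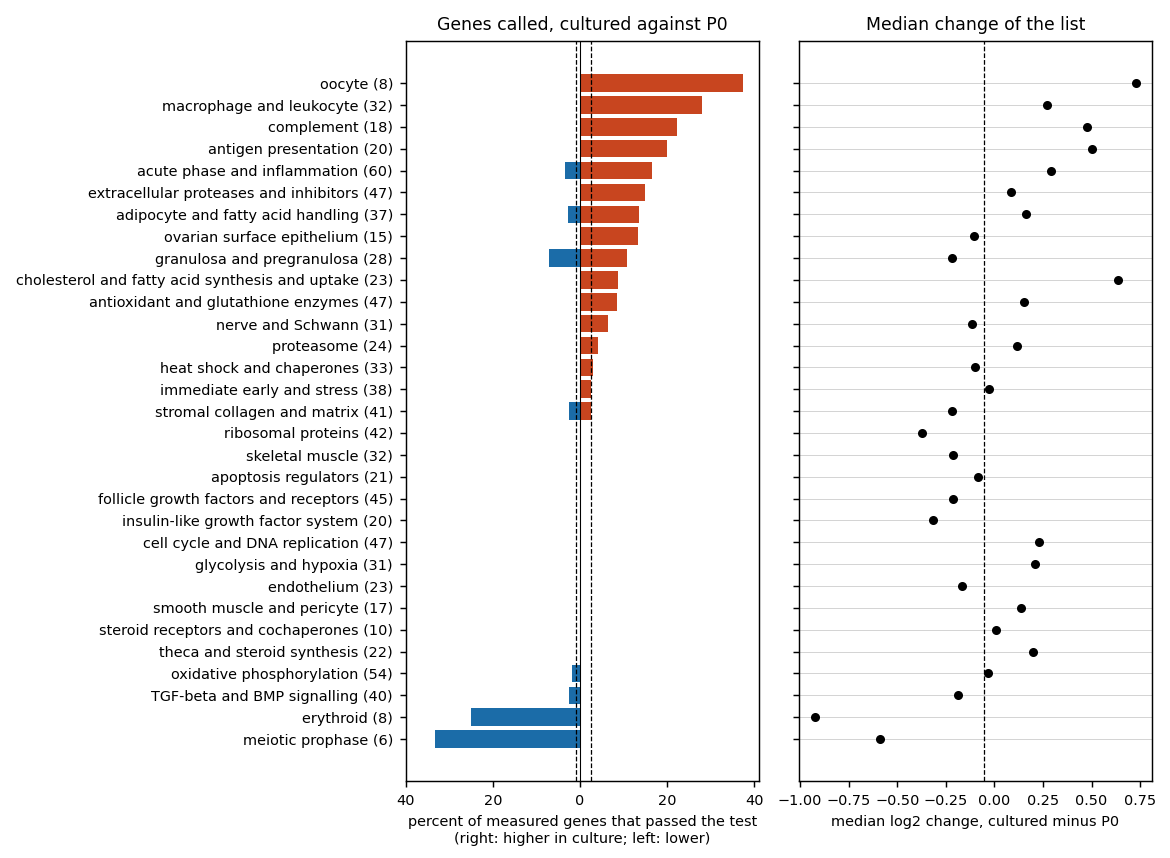
Percent of the measured genes of each of 31 lists (number measured in brackets) that passed the test in cultured against P0 ovaries, higher to the right and lower to the left, and the median log2 change of the list; dashed lines mark all 4736 named genes, at 2.47% higher, 0.845% lower and a median of -0.05. Oocyte, macrophage, complement and antigen presentation genes had the largest shares of increases, and meiotic and erythroid genes of decreases.

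None of the 45 measured follicle growth factors and receptors, of the 20 genes of the insulin-like growth factor system, of the 21 apoptosis regulators or of the 32 skeletal muscle genes passed. Their medians were -0.21, -0.32, -0.08 and -0.21 on the log2 scale. Among all named genes 2.47% were higher and 0.845% lower, so a list of such a size can lack a call at that rate. The same limit applies to every list without a call. In the 40 measured genes of TGF-beta and BMP signalling, Fst was the only member that passed. None of the 47 measured cell cycle genes passed, and their median log2 change was 0.23 against P0 and -0.28 against P4. Ccnb1, cyclin B1, read 268.9 and 206.5 at P0, 333.5 and 485.7 after culture and 656.5 and 582.9 at P4. None of the 31 glycolysis and hypoxia genes passed on its brightest probe set. Slc2a1, the main glucose transporter, read 239.4 and 261.5 at P0 and 359.5 and 763.9 after culture (log2 change 1.05, adjusted p = 0.143).

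Ribosomal protein genes had a median log2 change of -0.37 and 40 of the 42 measured lay below 0, yet none passed, and with quantile normalization the median was -0.01. With dim probe sets left out 4 of the 42 passed as lower. At P4 the ribosomal median was also below P0, by a log2 change of -0.34, and culture differed from P4 by a median of -0.05. Of 54 measured genes of oxidative phosphorylation, 1 fell and none rose. It was Cox6c, a subunit of cytochrome c oxidase, which read 157.4 and 147.1 at P0, 82.3 and 95.1 at P4 and 25.5 and 32.7 after culture, and fell by 2.13 against P0 (SE 0.24, adjusted p = 0.00384), a call that held without each array. The median of that list was -0.03. Of 47 antioxidant and glutathione genes 4 rose and none fell, with 2, 1, 1 and 1 higher without each array in turn, 2 with quantile normalization and a median of 0.15. Gpx2, the glutathione peroxidase of epithelia, read 21.7 and 26.7 at P0 and 208.6 and 187.8 after culture (log2 change 2.69, SE 0.27, adjusted p = 0.0023) and held without each array. Sod2, Nqo1 and Gsta1, the others that rose, did not. In the immediate early and stress list of 38 genes Asns rose, in the heat shock list of 33 genes Hsph1, and in the proteasome list of 24 genes Psmb8, and none of these calls held without each array. Hsph1 read 180.4 and 165 at P0, 386.4 and 307.2 at P4 and 359.1 and 409.4 after culture. Asns read 2.3 and 4 at P0, 20.8 and 16.2 at P4 and 31 and 39.5 after culture. At P4 Psmb8 read 124.8 and 97.2. Fos, an immediate early gene, read 94.3 and 263.2 at P0 and 99.6 and 158.6 after culture. Actb, beta-actin, did not pass (log2 change -0.29, adjusted p = 0.509), and its direction turned with quantile normalization.

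The comparison with P4 asked which levels after culture also differed from those of ovaries left in the animal for the first 4 days. The P4 ovaries were younger than the cultured ovaries by 3 days, and the comparison shares the cultured arrays with the one above. Between cultured and P4 ovaries 146 of the 8740 probe sets passed (1.67%), 122 higher and 24 lower in culture. Without P4 replicate 1, P4 replicate 2, cultured replicate 1 and cultured replicate 2 in turn, 65, 95, 48 and 58 passed. Of the probe sets called against P0, 100 were also higher and 13 also lower against P4. The largest increases against P4 were those of Cuzd1 (log2 change 5.36), Spp1 (4.89), and Scd (4.57), and of Mmp7, at least 22.8-fold, and C3, at least 19.3-fold. These 5 held without each of the 4 arrays. By list, 9 macrophage genes, 4 complement genes, 10 inflammation genes and 9 proteases were higher in culture than at P4, against 1.67% of all named genes higher and 0.338% lower. The members were not all those called against P0. Clu, Lyn and Emb did not pass against P4 (adjusted p = 0.0864, 0.128 and 0.189). C1qb, which had not passed against P0 on its brightest probe set, was higher than at P4 (adjusted p = 0.00519). The largest decreases against P4 were those of Hbb (log2 change -5.89), Hbb-b1 (-5.20), Fabp3 (-2.69) and Cyp19a1, with a Tnc probe set at least 3.39-fold lower. The first pair held without each array. Fabp3 lost the call without either cultured array, and Tnc without P4 replicate 2 or either cultured array (adjusted p up to 0.137 and 0.0936).

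The cultured arrays differed from each other by gene group. Of the 9 macrophage genes that rose, 8 were brighter on cultured replicate 1, by a median of 0.97 on the log2 scale. Of the 10 inflammation genes 8 were, by a median of 0.52, and of the 7 proteases all were, by 0.27. Of the 5 fat-handling genes 4 were brighter on cultured replicate 2, with a median difference of -0.61. Scd read 334.5 on replicate 1 and 1580.1 on replicate 2, while Pla2g2a read 1910.6 and 417.4. For the 3 zona pellucida genes the median difference was 0.07. With 1 array on each side these differences have no test, and the arrays are from different chip batches.

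**Figure D4:**
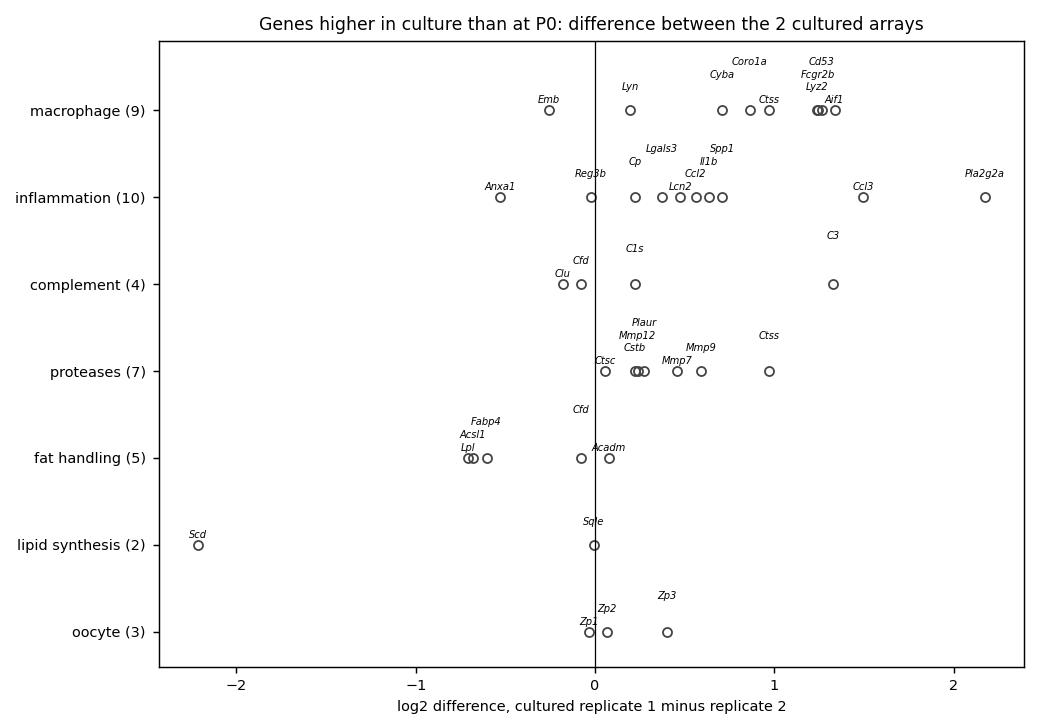
Log2 intensity of cultured replicate 1 minus cultured replicate 2 for genes that were higher in culture than at P0, by gene list (number of genes in brackets); each circle is a gene and the line at 0 marks equal intensity. Macrophage, inflammation and protease genes lie mostly to the right, brighter on replicate 1, and the fat-handling genes Lpl, Acsl1 and Fabp4 and the desaturase Scd to the left.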

How the data were processed

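Per the labels, each of the 6 arrays was hybridised with biotin-labelled material from 1 pool of ovaries. The authors deposited linear intensities of 8799 probe sets, scaled so that the mean without the extreme 2% at each end was 125 on each array. No source used here names the algorithm, and detection calls were not used. The 59 control probe sets were left out. Log2 of the deposited intensity plus 7.7, the 20th percentile, was fitted with limma 3.58.1 in R 4.3.3, with 3 group means on the 6 arrays, an intensity trend and Benjamini-Hochberg adjustment over 8740 probe sets. Fold changes on this scale understate low genes. The fit has 3 residual degrees of freedom, and an exact permutation test with 2 against 2 arrays cannot go below a two-sided p of 0.33. Symbols came from the platform annotation (7018 probe sets with 1 symbol, 308 with several, 1473 with none). Matching by gene number to RefSeq, possible for 6994 probe sets, changed 0 symbols. The brightest probe set stands for a gene in the lists.

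Named genes were the 15 largest increases and 15 largest decreases that passed without overlap, up to 5 members of each list by p, the 5 and 5 largest against P4, and Actb, Hbb, Spp1 and Zp2. Further genes were named after their values were seen, as was the background level of 20 chosen. The comparison and the lists were chosen with earlier results of these data known. The P0 and cultured arrays share numbers only: deviations of same-numbered arrays correlated at -0.110. Alternatives were other scalings, pseudocounts of 1 and 32, a filter on the dimmest 30%, other designs and leaving out each array. The script was tested on simulated data.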

Additional observations from a re-analysis of the deposited data

How the results depend on the processing

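Of the 64 named probe sets that passed in culture against P0, 53 kept the call with quantile normalization, 57 with array medians subtracted, 64 with a pseudocount of 1, 58 with 32, 53 without an intensity trend, 64 with only the 2 groups fitted and 64 with the chip batch as a random block, and of the 62 left after the filter on dim probe sets all 62 did. Without P0 replicate 1, P0 replicate 2, cultured replicate 1 and cultured replicate 2, 40, 32, 30 and 26 did, and none of the 64 changed direction under these alternatives. Leaving out 1 array gave 59 to 101 called probe sets against P0 (52 to 75 higher, 5 to 26 lower) and 48 to 95 against P4 (42 to 76 higher, 5 to 19 lower). With dim probe sets left out, 119 were lower than at P0 and 38 lower than at P4, with fewer probe sets tested. Most of the named probe sets were picked by size of change or by p. Of all 4736 named genes, 117 were higher and 40 lower than at P0, and with quantile normalization 85 and 30. Beyond the called genes, Actb turned to a log2 change of 0.13 with quantile normalization, and Cyp19a1, under the background level in both groups, ranged from -0.013 to 0.83 against P0 when 1 array was left out. The cause was not tested. The 2 arrays a group and intensity near background limit what dim genes can show.

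The replicate number as a block gave 178 called probe sets against P0 and 126 against P4, and 56 of the 64 named probe sets kept the call. The numbers did not pair the P0 and cultured arrays, so this is given once here. With the cultured numbers crossed, an alternative chosen after seeing the data, 462 were called against P0 (304 higher, 158 lower) and 261 against P4 (194 higher, 67 lower).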

Other observations

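Genes outside the lists also passed in culture against P0. Ceacam4, a cell adhesion molecule, read 43.1 and 32 at P0 and 298.7 and 282 after culture (log2 change 2.73, SE 0.26, limma adjusted p = 0.00156). Grn, the precursor of granulins, which macrophages and epithelia secrete, read 458.4 and 433.2 at P0 and 1853.3 and 1193.9 after culture (log2 change 1.72, SE 0.21, adjusted p = 0.00666). Both held without each array. Car3, a carbonic anhydrase abundant in fat, had a log2 change of 2.14 (adjusted p = 0.00236), lost without cultured replicate 2 (adjusted p = 0.057). Irf7, a regulator of interferon genes, read 14.3 and 15.6 at P0 and 130.6 and 76.6 after culture and passed (adjusted p = 0.0122), a call lost without 3 of the 4 arrays (adjusted p up to 0.0822). S100g, a calcium-binding protein, was at least 6.83-fold higher (adjusted p = 0.00953), lost without P0 replicate 2 or cultured replicate 2 (adjusted p up to 0.103).

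Some of these genes were as high at P4 as after culture. Dnmt1, the maintenance DNA methyltransferase, read 202.8 and 147.7 at P0, 1047 and 624.6 at P4 and 515.6 and 956 after culture (log2 change against P0 1.97, adjusted p = 0.0253), lost without any of the arrays (adjusted p up to 0.2). Pld1, a phospholipase, read 68.2 and 63.2 at P0, 459.9 and 332.9 at P4 and 238.5 and 366.2 after culture (log2 change against P0 2.05, adjusted p = 0.00666), lost without cultured replicate 2 (adjusted p = 0.0945). Against P4 neither passed, with log2 changes of -0.20 (adjusted p = 0.931) and -0.40 (adjusted p = 0.648). These genes were chosen after their values were seen.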
